A study of Sus scrofa with 4 samples.

Results

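Cathepsins are the main proteases of the lysosome, the acidic compartment in which cells break down proteins taken up from outside or delivered from within. They are made as inactive precursors, carried to the lysosome by sorting receptors, and activated there by cleavage at low pH. In the ileum, where the small intestine ends, they occur in macrophages and other immune cells, and in the absorptive cells of suckling mammals, which take up milk proteins by endocytosis. The probes of 8 cathepsin genes (*CTSB*, *CTSC*, *CTSD*, *CTSH*, *CTSK*, *CTSL*, *CTSS* and *CTSZ*) were sought on a pig array through the RefSeq transcript that each probe is listed for. Of these genes, 5 had a probe by that rule, among 2389 genes that RefSeq transcripts name on the array. They had 10 probes in all, of 43603 non-control probes. *CTSB* had 4 probes, *CTSD* and *CTSH* had 2 each, and *CTSK* and *CTSZ* had 1 each. *CTSC*, *CTSL* and *CTSS* were not analysed here, since no RefSeq transcript listed for them matched a probe.

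RNA was measured in ileum slices from piglets aged 16 days that were nursed by sows of Yorkshire × Landrace crosses and sired by Duroc boars. Piglets of low weight gain (2 arrays, labelled a and b, each a pool of 2 piglets) were compared with piglets of high weight gain (2 arrays, a and b, each a pool of 3). The title of the series asks how weight gain early in lactation bears on the immune system, while its design text speaks of birth weight. Groups were taken from the sample labels. Whether a and b are separate pools or repeat arrays of 1 pool is not stated, so the spread between them may be technical and piglet-to-piglet variation was not measured.

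Each level below is the log2 of the spot's processed signal minus the 75th percentile of all non-control spots on its array, so that 0 marks that percentile. A level depends on the probe as well as on the transcript, so no gene's level is ranked against another's. Differences are low gain minus high gain, fitted with limma over all 33265 tested probes, with a standard error (SE), a 95% confidence interval and a Benjamini-Hochberg adjusted p. The scanner flagged 32835 to 33972 of the 43803 non-control spots per array as well above background, and none was saturated. Low-gain array a had the widest spread among repeat spots, with a median SD of 0.147 (log2) against 0.0919 to 0.0938 on the other 3 arrays. *FABP6*, the ileal bile acid binding protein gene, had a mean level of 8.68 in low gain and of 8.66 in high gain, so this ileal marker was abundant in both groups. The probe sequences were not used here.

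The signal of all 10 cathepsin probes exceeded background on every array by the scanner's flag, and all 10 passed the filter on dim probes. Their local backgrounds were 14 to 20.5 intensity units. The processed signals of the dimmest of them, the *CTSB* probe A_72_P550091, ran from 174 to 724 units. The scanner software's own error estimate was 10% of the signal for each of these spots. The means over the 4 arrays lay above the 75th percentile for 9 of the 10 probes, and at -0.46 for A_72_P550091.

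Every cathepsin probe had its 2 low-gain levels below its 2 high-gain levels. Across all tested probes, 26.9% were separated in this way. The median difference was -0.47 over the 10 probes and -0.34 over the 5 genes when the brightest probe stood for each gene, against 0.02 over all tested probes and 0.02 over 2158 named genes. None of the 10 probes passed the test, with adjusted p-values (limma) from 0.188 to 0.756. Of all tested probes, 0.144% were lower in low gain and passed. At an unadjusted p under 0.05, 6 of the 10 were lower in low gain, against 8.57% of all tested probes. The probes of a gene share their target and are not replicates of a condition. With 2 arrays against 2, an exact permutation test of a single probe cannot go below a two-sided p of 0.333. The smallest absolute difference among the 80 probes that passed in either direction was 1.49, larger than that of any cathepsin probe. That count of 80 fell to 30 without low-gain array a and to 0 without either high-gain array, and none of these fits called a cathepsin probe. Fewer cells of a type and less RNA per cell cannot be told apart in such slices.

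**Figure D1:**
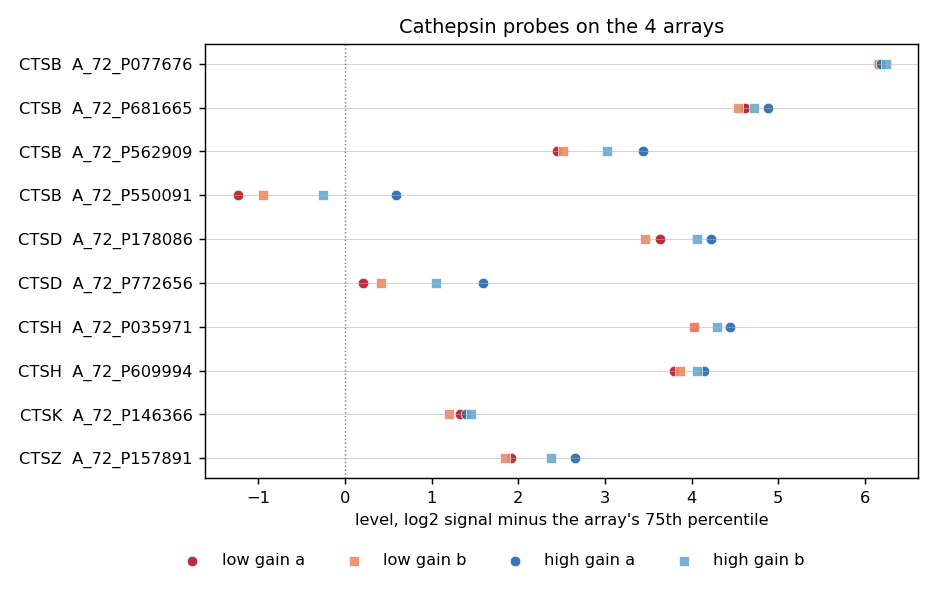
Level of each cathepsin probe (log2 signal minus the array's 75th percentile, dotted line at 0) on the 4 arrays, low gain in red and orange, high gain in blue. On every row both low-gain points lie to the left of both high-gain points, from a narrow step for *CTSB* probe A_72_P077676 to the widest spread for A_72_P550091.

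*CTSB* encodes cathepsin B, a cysteine protease that cuts inside proteins and also trims them from the carboxyl end. All 4 of its probes are listed for the transcript NM_001097458, and they gave different answers. Probe A_72_P077676, the brightest, had levels of 6.14 (array a) and 6.16 (array b) in low gain, against 6.19 (a) and 6.24 (b) in high gain. The groups did not overlap, but the difference was -0.06 ± 0.10 (SE), with an interval from -0.33 to 0.21 (limma adjusted p = 0.756), and -0.03 without high-gain array b.

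Probe A_72_P681665 had levels of 4.61 and 4.53 in low gain and of 4.87 and 4.72 in high gain, a difference of -0.23 ± 0.11 (SE) with an interval from -0.54 to 0.09, and -0.15 without high-gain array a. Probe A_72_P562909 had levels of 2.45 and 2.51 in low gain and of 3.44 and 3.02 in high gain, a difference of -0.75 ± 0.18 (SE) with an interval from -1.24 to -0.26 (limma adjusted p = 0.196). The low-gain arrays lay close together there, and high-gain array a was the highest of the 4. Probe A_72_P550091 had levels of -1.24 and -0.94 in low gain and of 0.59 and -0.25 in high gain. Its difference was -1.26 ± 0.33 (SE), or a 2.39-fold lower mean in low gain, with an interval from -2.16 to -0.36 (limma adjusted p = 0.206). Computed from median spot signals with normexp correction, it was -0.73. That correction adds an offset of 50 units, which in itself shrinks the differences of dim spots. The gap of 0.83 between its high-gain arrays was the widest within any group among the cathepsin probes.

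A shift of all values of an array cancels in the difference between its *CTSB* probes. A_72_P550091 minus A_72_P077676 was -7.38 and -7.11 (log2) for arrays a and b of low gain, and -5.60 and -6.49 for those of high gain. This within-array difference was -1.20 from high to low gain, and the groups did not overlap. It was -0.69 for A_72_P562909 and -0.17 for A_72_P681665 against the same probe, again without overlap. The size of the *CTSB* difference thus ran from 1.04-fold to 2.39-fold with the probe read.

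*CTSD* encodes cathepsin D, the aspartic protease of the lysosome. Probe A_72_P178086 had levels of 3.63 and 3.46 in low gain and of 4.23 and 4.06 in high gain. Its difference was -0.60 ± 0.13 (SE), a 1.51-fold lower mean in low gain, with an interval from -0.95 to -0.24 (limma adjusted p = 0.188). The gap of 0.17 between arrays of either group was smaller than this difference. Probe A_72_P772656 had levels of 0.20 and 0.41 in low gain and of 1.59 and 1.05 in high gain, a difference of -1.01 ± 0.23 (SE) with an interval from -1.64 to -0.38 (limma adjusted p = 0.192), and -0.63 with normexp on the median signal. Both probes were lower in low gain on both arrays. The second probe minus the first was -3.43 and -3.05 in low gain and -2.64 and -3.01 in high gain, so that the groups were separated only narrowly, between their arrays b.

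*CTSH* encodes cathepsin H, a cysteine protease that acts mainly as an aminopeptidase. Its 2 probes gave closely similar values. Probe A_72_P035971 had levels of 4.03 and 4.03 in low gain and of 4.44 and 4.30 in high gain, a difference of -0.34 ± 0.11 (SE), with an interval from -0.65 to -0.04 (limma adjusted p = 0.241). Probe A_72_P609994 had levels of 3.79 and 3.86 in low gain and of 4.15 and 4.06 in high gain, a difference of -0.28 ± 0.10 (SE), with an interval from -0.56 to 0.01 (limma adjusted p = 0.280). The second probe minus the first overlapped between the groups, averaging -0.20 for low gain and -0.26 for high gain.

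*CTSK* encodes cathepsin K, a collagen-degrading cysteine protease best known from osteoclasts. Its probe had levels of 1.32 and 1.21 in low gain and of 1.40 and 1.45 in high gain. The difference of -0.16 ± 0.11 (SE) had an interval from -0.46 to 0.14 (limma adjusted p = 0.471), and the arrays of a group lay up to 0.12 apart. It was -0.10 without low-gain array b and -0.25 in the authors' deposited values. *CTSZ* encodes cathepsin Z, also called cathepsin X, a cysteine carboxypeptidase found in many immune cells. Its probe had levels of 1.92 and 1.85 in low gain and of 2.65 and 2.37 in high gain. The difference of -0.63 ± 0.14 (SE), a 1.55-fold lower mean in low gain, had an interval from -1.02 to -0.24 (limma adjusted p = 0.190). The high-gain arrays lay 0.28 apart and the low-gain arrays 0.07.

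**Figure D2:**
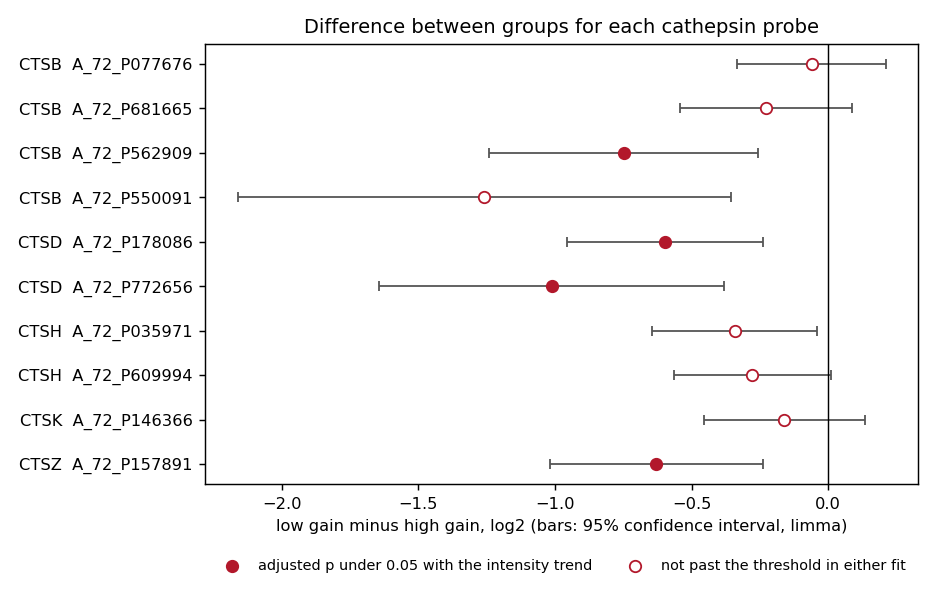
Difference between groups (low gain minus high gain, log2) for each cathepsin probe, with the 95% confidence interval of the limma fit. All 10 points lie left of 0, the intervals of 6 probes exclude 0, and filled points mark the 4 probes past the threshold with an intensity-dependent prior variance.

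The call depended on the variance model and on the background correction. With a prior variance that depends on signal intensity, limma called 4 cathepsin probes lower in low gain: both probes of *CTSD* (adjusted p = 0.0309 for A_72_P178086 and 0.0395 for A_72_P772656), that of *CTSZ* (0.0361) and the *CTSB* probe A_72_P562909 (0.0406). In that fit, 1.5% of all tested probes were lower in low gain and passed. None of the 4 kept its call in that fit without low-gain array a, where the lowest adjusted p of a cathepsin probe was 0.103. That alternative was added after the data were seen, and the trend was not fitted without any other array. The loss of the calls can thus not be laid to low-gain array a in particular. The *CTSH* and *CTSK* probes did not pass with or without the trend. With normexp background correction and bright local backgrounds replaced, limma without the trend called the same 4 probes and A_72_P550091, with adjusted p-values from 0.0308 for A_72_P178086 to 0.0445 for A_72_P772656, against 1.22% of all tested probes lower in low gain and past the test.

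The arrays of a group also differed in order. On 8 of the 10 cathepsin probes high-gain array a was the highest of the 4 and high-gain array b the next. The high-gain arrays lay farther apart than the low-gain arrays for 8 probes. Without high-gain array a, the median difference over the 10 probes was -0.38, and without high-gain array b it was -0.55. That of *CTSB* probe A_72_P550091 was -0.84 and -1.68 in these fits.

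A lower value on the dim than on the bright probe of a gene, as in *CTSB* and *CTSD*, was also seen in most named genes that could be compared. Among 1145 named genes with at least 2 probes well above background on all 4 arrays, the dimmest probe had a lower value of the difference than the brightest in 72.5%, with a median of -0.15. Where the probes lay at least 2 log2 units apart, a limit set after the data were seen, this was so for 81.8% of 636 genes, with a median of -0.29. The value for *CTSB* was -1.20, and 1.26% of those 636 genes had a lower one. That of *CTSD* was -0.42, and 36.2% had a lower one. These shares are over all gaps of at least 2 and are not matched for gap, which was 6.65 for *CTSB* and 3.03 for *CTSD*. How unusual *CTSB* is among genes of like gap was not tested. The value for *CTSH*, whose probes lay only 0.23 apart, was 0.07. Centred on the 4 arrays, the median dimmest-minus-brightest value over the 1145 genes was -0.07 (a) and -0.09 (b) in low gain, and 0.15 (a) and 0.00 (b) in high gain. High-gain array a thus stood highest in this measure, as it did for most cathepsin probes.

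Over all tested probes, which belong to different genes and include those above background in only 1 group, the levels were also split into 4 equal bins. The median difference was 0.06 in the dimmest bin and between 0.00 and 0.02 in the other 3. What the within-gene pattern contributes to the cathepsin differences was not tested. The brightest probes gave -0.06 for *CTSB*, -0.60 for *CTSD* and -0.34 for *CTSH*. *CTSK* and *CTSZ* had no other probe to compare.

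**Figure D3:**
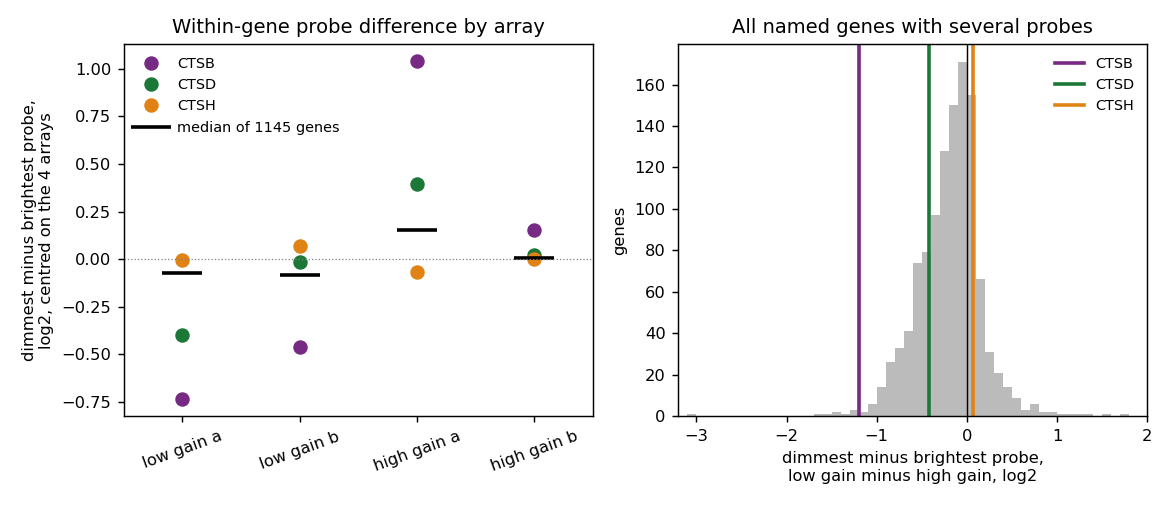
Left, dimmest minus brightest probe of *CTSB*, *CTSD* and *CTSH* on each array (log2, centred on the 4 arrays), with the median of 1145 genes as black bars. Right, histogram of low gain minus high gain in that measure for the 1145 genes, with *CTSB* at -1.20 and *CTSD* at -0.42 left of 0 and *CTSH* at 0.07.

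Other genes of the lysosome were described by their brightest probe. Inhibitors came first: the cystatins, small proteins that block cysteine cathepsins, were represented by 2 of 8 listed genes, and neither passed. *CST3*, which encodes cystatin C, differed by -0.06 and *CSTB*, which encodes cystatin B, by 0.01. Of 10 further cathepsin and legumain names listed, 1 was measured. *CTSV*, which encodes a close relative of cathepsin L, had 10 probes with differences from -0.58 to 0.02, and its brightest gave -0.01 ± 0.14 (SE). Probes for such closely related genes can bind each other's transcripts.

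Among lysosomal hydrolases and their activators, 16 of 41 listed genes were measured, with 1 past the test, lower in low gain, and none past it in the other direction. Of all tested probes, 0.144% passed lower in low gain and 0.0962% higher. The gene that fell was *LYZ*, which encodes lysozyme (-1.52 ± 0.10, SE, limma adjusted p = 0.0467). The next largest differences were those of *DNASE2*, the lysosomal DNase gene (-0.93), *LIPA*, the acid lipase gene (-0.88), and *PSAP*, which encodes the precursor of the saposins (-0.45), with limma adjusted p-values from 0.176 to 0.213. With the intensity trend, 3 of the 16 were called lower and none higher, where 1.5% of all tested probes were called lower. They were *LYZ* (limma adjusted p = 0.000401), *LIPA* (0.0337) and *DNASE2* (0.0382). Of the 16, 9 had a mean below that of high gain, 8 with both low-gain arrays below both high-gain arrays, and 5 were separated the other way. Of 2099 named genes well above background on all 4 arrays, as all 16 were, 29.3% were separated lower and 32.8% higher. The median of the 16 was -0.07. Without the intensity trend, *LYZ* lost its call in each fit without 1 array (limma adjusted p from 0.0978 to 0.520) and in 4 other alternatives, such as signal required on all 4 arrays (0.0575).

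Lysosomal membrane genes (4 of 18 measured) had a median of -0.13, with *CLN3*, the gene mutated in a childhood lysosomal storage disease, at -0.23. *LAMP1*, which encodes an abundant membrane glycoprotein, was at -0.21 and *NPC1*, a cholesterol exporter gene, at -0.01. *SLC11A1*, a metal transporter gene of phagocytes, was at -0.05 ± 0.75 (SE), an error too wide to read it as unchanged. Subunits of the proton pump that acidifies the lysosome (4 of 18 measured) had a median of -0.04, with *ATP6V1A* at -0.25, *ATP6V0E1* at -0.10, *ATP6V1G1* at 0.08 and *ATP6V1H* at 0.02. Sorting and regulatory genes (2 of 20 measured) were *AP3B1*, for a sorting adaptor subunit, at -0.12 and *MITF*, for a transcription factor, at -0.08. None of these passed the test. Genes for the class II pathway, in which cathepsins trim the invariant chain and antigens, had 6 of 7 members measured and a median of -0.09, none past the test. *CD74*, which encodes the invariant chain, differed by -0.43 on its brightest probe and by -0.80 on the other. The class II genes *SLA-DOA* (-0.26), *SLA-DQA1* (0.16) and *SLA-DMB* (-0.12) had smaller values on their brightest probes. The other probe of *SLA-DMB* gave -0.67 and that of *SLA-DOA* -0.23, while the others of *SLA-DQA1* ran from -0.18 to 0.41.

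**Figure D4:**
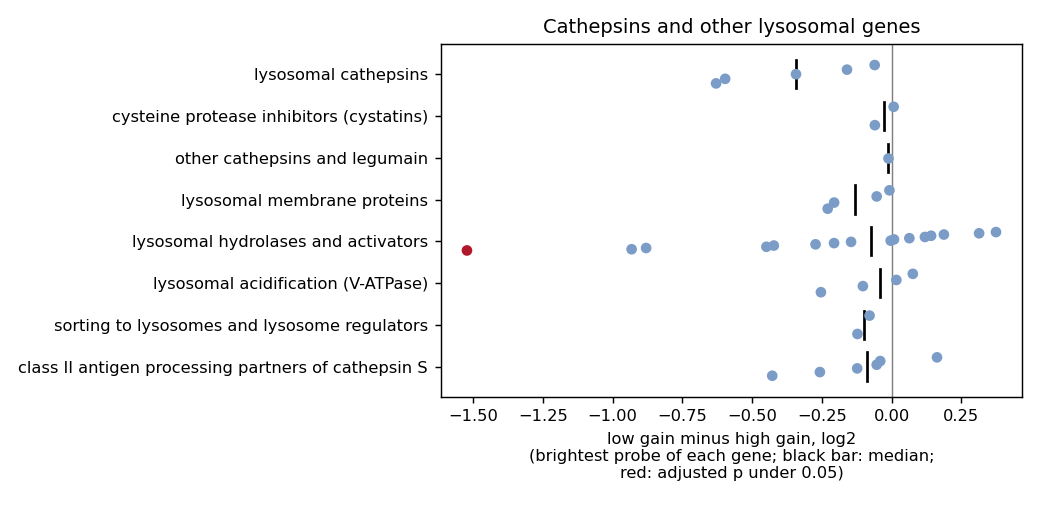
Low gain minus high gain (log2) for the brightest probe of each measured gene, for the 5 cathepsins and 7 other lists, with the median of each list as a black bar. The cathepsin median is -0.34, the other medians lie between -0.13 and -0.01, and *LYZ* at -1.52 is the only gene past the test.

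Cathepsin RNA can come from several cell types of the slice, and 9 marker lists were read beside it. Of 17 macrophage and dendritic cell markers, 8 were well above background on all 4 arrays, 6 of them with both low-gain arrays below both high-gain arrays and 2 separated the other way, against the shares of 29.3% and 32.8% over named genes. Their median was -0.27. Of the 19 tested probes of the list, 14 were lower in low gain, against 47.3% of all tested probes. *CD163*, a macrophage scavenger receptor gene, differed by -0.41 and *CD1.1*, a lipid antigen presentation gene, by -1.06, while *FCGR3A*, an antibody receptor gene, differed by 0.36, and none passed the test. With the intensity trend, 2 markers of the list were called lower and none higher, where 1.5% of all tested probes were called lower. They were *CD163* (limma adjusted p = 0.0471) and *CD1.1* (0.0137). *SIGLEC1* also passed the filter but was well above background on only 1 of 2 low-gain arrays. It is left out of the gene counts and the median of -0.27, but not of the 19 probes or the sum below. Summed over the brightest probes of the list in units of each array's 75th percentile, a sum that the brightest members dominate, the signal was 43.0 and 43.1 in low gain and 44.2 and 44.2 in high gain.

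Several other marker lists had a median above 0 (higher in low gain). Of named genes above background on all 4 arrays, 29.3% were separated lower and 32.8% higher. With the intensity trend, 7 cytotoxic lymphocyte, 4 smooth muscle, 3 enterocyte, 3 goblet and Paneth-like and 1 T cell marker were called higher. Lower calls were 1 T cell, 1 goblet and Paneth-like and 1 fat cell marker. In that fit, 751 of 33265 tested probes were called higher and 1.5% lower. Among enterocyte markers (6 of 12 measured), 5 were separated higher, with a median of 0.45 and a summed signal of 711 and 736 in low gain against 586 and 663 in high gain. Among cytotoxic lymphocyte markers (8 of 12 measured), 7 were separated higher, with a median of 0.93 and a sum of 27.9 and 28.9 against 13.9 and 14.4. *GZMK*, which encodes a granzyme, rose by 1.67 (limma adjusted p = 0.0383), in a comparison where 0.0962% of all tested probes were higher in low gain and passed. Its difference was 0.55 with normexp on the median signal, where the offset of 50 units shrinks the differences of dim spots. T cell markers (9 of 11 measured) had 5 separated higher and 1 lower and a median of 0.43, although their sum was lower in low gain, at 16.8 and 16.6 against 21.3 and 19.8.

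Goblet and Paneth-like markers (5 of 8 measured) had 4 separated higher, against 32.8% of named genes. Their median was 0.46, with a sum of 186 and 182 in low gain against 105 and 112 in high gain. *CLCA1*, a goblet cell gene, rose by 1.73 (limma adjusted p = 0.0393), and *LYZ*, also on this list, fell as given above. Without the intensity trend, *GZMK* and *CLCA1* lost their calls in each fit without 1 array and in the same 4 alternatives as *LYZ*. Smooth muscle markers (5 of 8 measured) had 4 separated higher, a median of 0.48 and a sum of 308 and 303 against 235 and 233. The osteoclast and fibroblast list, which bears on *CTSK*, had 3 of 8 members measured and a sum of 120 and 118 against 110 and 124. *ACP5*, an osteoclast phosphatase gene, was at -0.27 and *DCN*, which encodes decorin, at 0.46. *CALCR*, the calcitonin receptor gene, was at 0.05 ± 0.62 (SE), again a wide error. B cell markers well above background on all 4 arrays were 2 of 8, 1 of them separated lower, and fat cell markers 6 of 7, 2 separated lower and 2 higher. The fat cell counts lay near the shares over named genes, 29.3% lower and 32.8% higher. Over its probes the fat cell list was less even. Of 36 tested, 29 were lower in low gain, against 47.3% of all tested probes, with a median of -1.61. *CA3* had 19 tested probes, which are not replicates: the brightest gave 0.27 and the others -6.34 to -0.49. Of these 19, only 3 exceeded background on every array by the scanner's flag, the dimmest of them at -1.29. The rest passed the filter on dim probes through 1 group only, as did *PLIN1*, flagged on 1 of 2 low-gain arrays. The count of 29 and the median of -1.61 thus lean on *CA3* and on probes admitted through 1 group. They cannot show a change in fat cells as a whole. Several measured markers differed by less than their SE, among them *FABP6* (0.02 ± 0.12, SE) and the T cell gene *LCK* (0.07 ± 0.12, SE). The part of cell makeup in the cathepsin differences was not tested.

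The genes nearest in profile were sought among 2094 named genes above background on all 4 arrays, as the smallest root mean square distance between levels centred on the 4 arrays. They were *DHX16* and *SLA-DMA* for *CTSB*, LOC780435 and *RHCE* for *CTSD*, *NFKBIA* and *TRA2B* for *CTSH*, *RIT1* and *SCG5* for *CTSK*, and *PSEN2* and *SIRT5* for *CTSZ*. These distances ran from 0.0084 to 0.047 log2 units, over only 4 arrays.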

How the data were processed

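Scanner files deposited by the authors give spot intensity from Agilent Feature Extraction 10.7.3.1 for 1-colour (Cy3) arrays, per the file headers. A value table deposited by the authors (processing not given in the sources used here) is on a log2 scale, as its slopes of 1.00 to 1.01 on log2 processed signal show, and served only as an alternative. Log2 processed signals had each array's 75th percentile of non-control spots subtracted. Outlier-flagged spots were left out, spots of 1 probe averaged, and 48 of 43603 probes dropped for a missing value. The 33265 probes well above background on both arrays of at least 1 group were tested by low gain minus high gain, with limma 3.58.1 (lmFit, eBayes; R 4.3.3), Benjamini-Hochberg adjustment across all of them and a threshold of 0.05. The code was tested on simulated data. Unversioned RefSeq transcripts (5461 of 5779 probes matched) named genes through the NCBI table of Sscrofa11.1. No coordinates are printed, as no build is named in the files. The probe with the highest mean level stood for a gene. The members, gene lists and alternatives were chosen with earlier results of these data known. Named genes were all cathepsins, and in pathway lists the members past the test and otherwise the 4 largest differences. Some hydrolase genes are counted but not reported here by name. In marker lists, genes were named after their values were seen, those past the test among them. Precision is limited by the number of arrays.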

Additional observations from a re-analysis of the deposited data

How the results depend on the processing

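All 10 cathepsin probes were lower in low gain in each of the 15 alternatives run, among them quantile normalisation, median centring and the authors' deposited values. Another filter, keeping outlier-flagged spots, the intensity trend and the replicate block leave the differences as they are. Leaving out 1 array could not reverse a sign, since the groups did not overlap on any cathepsin probe. All of these alternatives add nothing to that count. The medians over the 10 probes ran from -0.55 to -0.38. The number of cathepsin probes past the test was 4 with the intensity trend and 5 with normexp background correction when bright local backgrounds were replaced (the same 4 and A_72_P550091), and 0 in every other alternative, including each fit without 1 array (0 to 0) and the replicate block. With normexp on the median signal as it stands, the *CTSB* probe A_72_P550091 was at -0.73 and the *CTSD* probe A_72_P772656 at -0.63. Errors were much wider in that fit: the SE was 0.89 against 0.33 in the main fit for A_72_P550091, and 1.12 against 0.13 for the *CTSD* probe A_72_P178086. Both normexp alternatives add an offset of 50 units, which shrinks the differences of dim spots. The mean over a gene's probes in place of its brightest moved the median of the 5 genes from -0.34 to -0.57. Median centring moved the median cathepsin level from 3.35 to 6.36, a change of zero point.

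Over all probes, 80 passed. The count was 1250 with the intensity trend, 1052 with normexp and bright backgrounds replaced, 163 with median centring (70 higher, 93 lower), 12 with no filter on dim probes, and 0 with normexp on the median signal, with signal required on all 4 arrays or with the replicate block. Without 1 array it ran from 0 (either high-gain array) to 56, with 30 without low-gain array a. It was 192 in an alternative added after the data were seen, which left out low-gain array a and kept the intensity trend. The cause of these changes was not tested. The a-minus-b differences correlated at -0.037 between the groups across 33265 probes, which are not independent replicates. No shift shared by the letters a and b showed in this measure, which cannot tell whether the arrays were paired.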
